A study of Mus musculus with 24 samples.

Results

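The Hox cluster genes are the homeobox genes named Hoxa, Hoxb, Hoxc or Hoxd plus a paralogue number, and they were followed here from mouse pluripotent stem cells to germ cells. Members were chosen by symbol alone. RefSeq lists 39 such genes in 4 clusters, and 33 of them had at least 1 probe set assigned to no other gene, out of 18193 genes with such a probe set on the array. Cluster A, on chromosome 6, was represented by 9 of 11 genes, cluster B, on chromosome 11, by 9 of 10, cluster C, on chromosome 15, by 7 of 9, and cluster D, on chromosome 2, by 8 of 9. Together they carried 48 of 34945 such probe sets, and 11 genes had more than 1. The other 6 genes were not analysed here on their own, among them Hoxb8 and Hoxd4, whose probe sets were shared with Hoxb7 and Hoxd3.

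RNA abundance was measured on 24 Affymetrix mouse arrays in 12 groups of 2 samples, all of strain C57BL/6. Unamplified RNA came from primordial germ cell-like cells (PGCLCs) induced from day 2 EpiLCs, from epiblast stem cells (EpiSCs), a line type derived from the embryonic day 5.75 epiblast, from epiblast-like cells (EpiLCs) at days 1, 2 and 3 of induction, and from the embryonic stem cells (ESCs) they were induced from. The ESCs were kept without feeder cells in medium with the inhibitor pair called 2i and the cytokine LIF. A second set held PGCLCs, primordial germ cells (PGCs) of embryonic day 9.5, EpiSCs, day 2 EpiLCs, ESCs and epiblast, the last described by the submitters as pre-gastrulating, at embryonic days 5.5 to 6.0. For this set 5 ng of RNA, equal to 500 cells, was amplified through 22 cycles of PCR. Samples of a group are labelled biological replicates without saying whether cultures or litters were separate, so a p-value here reflects only how these samples spread, which may be partly technical. The sources used here do not say how PGCs and PGCLCs were isolated from neighbouring cells.

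Hox proteins are DNA-binding transcription factors that give cells their position along the head-to-tail axis. Within a cluster, genes with low paralogue numbers switch on earlier and reach further towards the head than genes with high numbers, an order called collinearity. Retinoic acid and Cdx factors activate Hox genes, Pbx and Meis proteins bind DNA with them, and Polycomb proteins keep the clusters silent in pluripotent cells. In mouse embryos the precursors of PGCs start a somatic programme that includes Hox genes and then shut it down with the repressor Prdm1.

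Promoters of 4 Hox genes with a probe set that was higher in PGCs than in epiblast, 1 from each cluster, are shown to relate the genes to these regulators. They were taken from the RefSeq promoter table of build GRCm38.p6, each running from 250 bases before to 50 bases after a start site, 5′ to 3′ on the strand of the gene. Hoxa9 lies at chr6:52227321-52227620 on the minus strand, Hoxb1 at chr11:96365508-96365807, Hoxc4 at chr15:103034145-103034444 and Hoxd8 at chr2:74704365-74704664, these on the plus strand. Capitals mark matches, on either strand, to TGATNNAT, a site form that Hox and Pbx proteins bind together, TTTATG, a core recognised by Cdx proteins, and AGGTCA, the half-site of retinoic acid receptors.
Hoxa9: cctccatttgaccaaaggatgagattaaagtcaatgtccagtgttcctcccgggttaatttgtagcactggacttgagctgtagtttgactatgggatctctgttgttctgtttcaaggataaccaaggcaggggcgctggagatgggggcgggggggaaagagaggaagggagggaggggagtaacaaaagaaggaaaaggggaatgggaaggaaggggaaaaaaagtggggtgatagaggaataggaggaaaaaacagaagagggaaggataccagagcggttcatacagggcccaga
Hoxb1: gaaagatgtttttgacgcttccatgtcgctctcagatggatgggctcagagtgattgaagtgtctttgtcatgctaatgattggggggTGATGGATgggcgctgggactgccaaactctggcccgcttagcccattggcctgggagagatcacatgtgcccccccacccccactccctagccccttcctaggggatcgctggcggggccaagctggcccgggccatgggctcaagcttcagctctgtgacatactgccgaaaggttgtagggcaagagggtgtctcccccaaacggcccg
Hoxc4: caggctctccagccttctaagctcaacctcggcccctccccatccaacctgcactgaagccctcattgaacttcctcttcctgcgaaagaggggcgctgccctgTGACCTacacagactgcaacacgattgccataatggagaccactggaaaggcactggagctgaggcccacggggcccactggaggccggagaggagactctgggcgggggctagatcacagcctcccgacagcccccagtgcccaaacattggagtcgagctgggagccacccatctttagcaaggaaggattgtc
Hoxd8: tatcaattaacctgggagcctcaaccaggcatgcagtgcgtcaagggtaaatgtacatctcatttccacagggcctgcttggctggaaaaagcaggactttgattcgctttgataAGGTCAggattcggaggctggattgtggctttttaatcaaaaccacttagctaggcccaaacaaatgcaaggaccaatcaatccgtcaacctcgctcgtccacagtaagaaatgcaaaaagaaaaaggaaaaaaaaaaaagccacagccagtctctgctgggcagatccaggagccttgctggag

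Hoxb1 held 1 match to TGATNNAT, Hoxc4 and Hoxd8 held 1 match each to AGGTCA, and no match to the 3 motifs was in the Hoxa9 window. The table held 24 windows of 22 Hox genes, of which 19 were among the 33 measured ones. TGATNNAT was in 16.7% of the Hox windows and in 8.85% of all 32851 windows in the table. TTTATG was in 20.8% of the Hox windows and in 11.9% of all windows, and AGGTCA in 29.2% and 16.3%. The Hox windows had a median of 14.5 CG dinucleotides, with a range of 4 to 45, against a median of 7 in all windows. These are descriptions of letters and do not show that a factor binds.

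The labels were checked with marker genes. The summed intensity of 7 germ cell markers was 15286 to 20696 on the PGCLC and PGC arrays and 725 to 4179 on the other arrays. That of 5 postimplantation epiblast markers was 12843 to 17801 on the day 2 EpiLC and epiblast arrays. Day 1 EpiLCs lay within that range, at 14972 and 14645. The sum was 10145 and 9832 in day 3 EpiLCs and 223 to 6880 on the remaining arrays. Replicates correlated with r of 0.97 to 0.99 across genes tested in unamplified groups and 0.91 to 0.97 in amplified groups, the lowest being EpiSCs (genes are not independent replicates). The number of arrays limits the precision. An intensity was taken as detected where both arrays of a group exceeded the 40th percentile of their array set, 28.1 on unamplified and 24 on amplified arrays.

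More Hox genes were detected in PGCs than in any other group. Counting a gene once for any of its probe sets, 20 of 33 Hox genes were detected in E9.5 PGCs, against 10 to 15 in each of the other 11 groups. By probe set, 54.2% of the 48 were detected in PGCs and 22.9% to 33.3% elsewhere, whereas 61% to 65% of all probe sets were detected in every group. The gap was widest in cluster B, with 6 of its 9 genes detected in PGCs and 2 or 3 in any other group. For cluster A the count was 6 in PGCs and 5 or 6 elsewhere, for cluster C it was 4 in PGCs and 2 to 4 elsewhere, and for cluster D it was 4 in PGCs and 0 to 3 elsewhere. In PGCs, 6 of the 10 measured genes of paralogue groups 1 to 4, 7 of 9 of groups 5 to 8 and 7 of 14 of groups 9 to 13 were detected. Hoxa2, Hoxa4, Hoxa13, Hoxb5, Hoxb7, Hoxd1, Hoxd9 and Hoxd10 were detected in no group by any probe set. These counts moved with the level: by the representative probe set, 17 Hox genes were detected in at least 1 unamplified group and 23 in at least 1 amplified group, but 10 and 8 with the 60th percentile as the level.

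**Figure D1:**
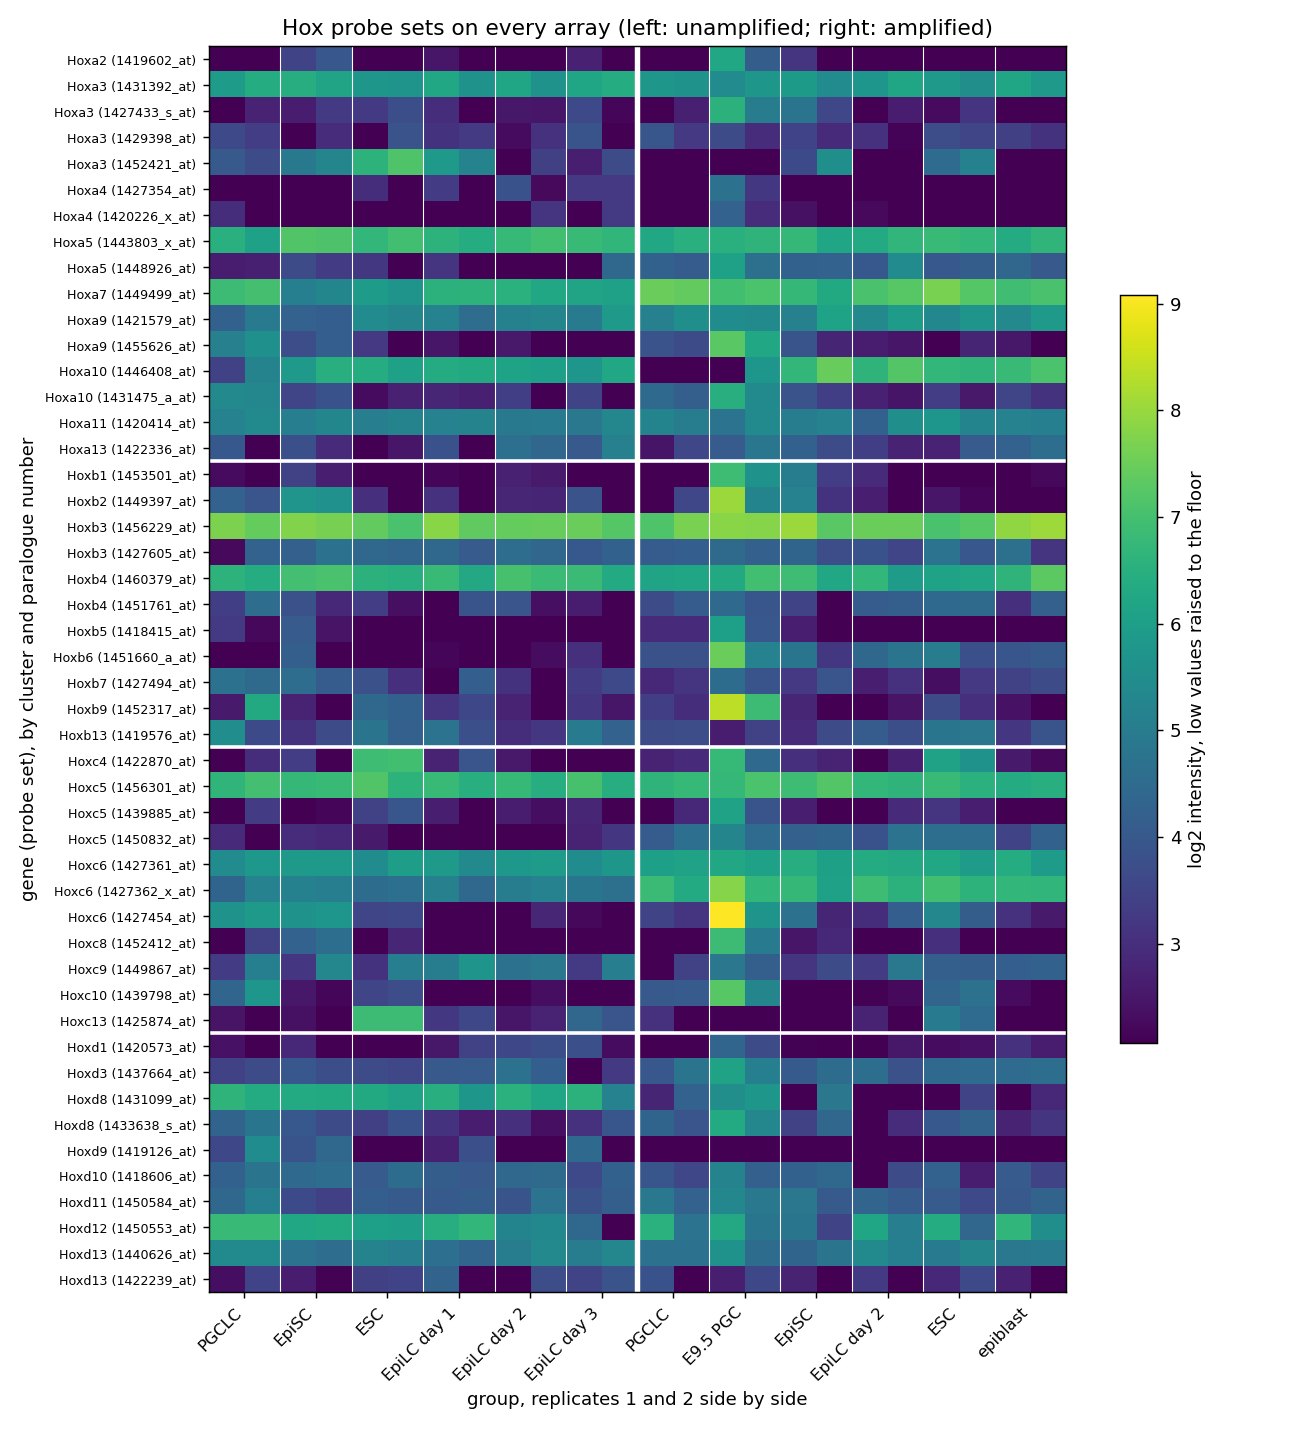
Log2 intensity of all 48 Hox probe sets (rows, by cluster and paralogue number) on all 24 arrays (columns, 2 per group), with values under 4.20 raised to that floor. Outside the E9.5 PGC columns most rows are dark, with 22.9% to 33.3% of probe sets detected, and in the E9.5 PGC columns 26 of the 48 probe sets exceeded the detection level on both arrays.

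Some Hox probe sets were above the level in every group. Of the 48 probe sets, 7 were detected in all 12 groups (for Hoxa3, Hoxa5, Hoxa7, Hoxb3, Hoxb4, Hoxc5 and Hoxc6), and of these the Hoxa7 one was called between groups. The Hoxb3 probe set 1456229_at ranged between 134 and 267 over the 24 arrays, and Hoxc5 1456301_at between 83.0 and 147. Other probe sets of the same genes behaved differently: Hoxc5 1439885_at read 68.4 and 15.0 in PGCs and between 1 and 15.3 on all other arrays. Each gene was represented by its brightest probe set, and for Hoxa3, Hoxa5, Hoxc5 and Hoxc6 this one was called in no comparison by gene. Every probe set was therefore also tested on its own. Values of different probe sets are not comparable with each other in level, and several genes named below have probe sets that disagree.

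Hox probe sets of Hoxc4, Hoxc13 and Hoxa3 that were above the level in ESCs lost their signal in EpiLCs. Hoxc4, which acts in the neck region of the trunk, read 6.82 and 15.2 at day 1, 5.80 and 1.48 at day 2 and 1 and 1 at day 3, against 120 and 125 in ESCs. Hoxc13, known for its role in hair, read 5.68 and 6.80 at day 2 and 116 and 117 in ESCs. Both genes were above the level only on the ESC arrays of this set, and no EpiLC array overlapped them. The log2 difference of day 2 EpiLCs minus ESCs was -4.63 ± 0.53 for Hoxc4 (limma adjusted p = 2.95e-05) and -4.23 ± 0.33 for Hoxc13 (limma adjusted p = 1.53e-06), with n = 2 arrays per group. Against the detection level this is at least 4.36-fold and 4.16-fold lower in EpiLCs. These 2 were the only ones called of 18 Hox genes tested, where called means an adjusted p under 0.05 and a 2-fold change, and both were lower. Among all 14934 genes tested 16.5% were called, and 7.5% of all genes were called lower in EpiLCs. As Hoxc4 and Hoxc13 entered the test through the ESC arrays alone, their count is a description. The median log2 difference was 0.05 over the 18 Hox genes and 0.01 over all genes.

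The loss was already present at day 1 and held at day 3. As Hoxc4 and Hoxc13 entered the test through the ESC arrays alone, the counts against ESCs are descriptions here too. At day 1 the same 2 Hox genes were called against ESCs, with 12% of all genes called, and at day 3 the count was 3, with 19.9% of all genes called. The third was Hoxd12, a limb gene, at 21.6 and 2.59 at day 3 and 65.1 and 62.2 in ESCs (-2.74 ± 0.54, limma adjusted p = 0.00136, at least 2.27-fold lower). Between day 3 and day 2, with 4.26% of all genes called, Hoxd12 was lower and Hoxc13 higher. Hoxc13 was 20.9 and 15.1 at day 3 and 5.68 and 6.80 at day 2, all under the level.

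The count by probe set is a description too, as Hoxc4 and Hoxc13 entered the test through the ESC arrays alone. Probe set by probe set, 4 Hox genes were lower in day 2 EpiLCs than in ESCs, where 7.47% of all probe sets were lower. Besides Hoxc4 and Hoxc13 these were Hoxa3, which patterns the pharyngeal region, and Hoxc6, a gene of the thoracic region. Hoxa3 1452421_at read 57.4 and 36.7 at day 1 and 1.42 and 10.5 at day 2, against 96.7 and 141 in ESCs, so the signal was intermediate at day 1. Its log2 difference at day 2 was -4.13 ± 0.48 (limma adjusted p = 4.4e-05), at least 4.16-fold. The brightest Hoxa3 probe set did not share this pattern: 1431392_at read 74.4 and 51.1 at day 2, against 55.3 and 52.0 in ESCs. The Hoxc6 probe set 1427454_at was below the level in both groups, at 3.01 and 7.08 in day 2 EpiLCs and 11.6 and 11.9 in ESCs, and lost its call when either ESC array or the first EpiLC array was left out.

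On amplified arrays, too, Hoxc4 was lower in EpiLCs. It read 3.33 and 6.48 in amplified day 2 EpiLCs and 68.6 and 50.4 in amplified ESCs, a log2 difference of -3.49 ± 0.65 (limma adjusted p = 0.00849) and at least 2.44-fold. Hoxc10, a lumbar gene, read 4.30 and 4.79 in EpiLCs and 20.4 and 25.9 in ESCs (-2.34 ± 0.57, limma adjusted p = 0.0317), mostly under the level. These were the 2 called, both lower, of 25 Hox genes tested, with 8.51% of all 15608 genes called and 4.24% called lower. Hoxc13 read 6.74 and 1 in EpiLCs and 31.0 and 22.8 in ESCs and did not enter this test. By single probe set Hoxa3 1452421_at was lower as well, at 1 and 1 in EpiLCs and 23.1 and 35.5 in ESCs (-2.77 ± 0.62, limma adjusted p = 0.0259), making 3, with 3.52% of all probe sets called lower. Leaving out the first ESC array or the first EpiLC array left 0 Hox genes called here, and leaving out the second of either left 1.

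EpiSCs differed from day 2 EpiLCs in a few Hox genes. Hoxb2, a hindbrain gene, read 52.8 and 48.8 in EpiSCs and 7.05 and 6.97 in day 2 EpiLCs, and no other unamplified group exceeded 19.3. It rose by 2.86 ± 0.58 on the log2 scale (limma adjusted p = 0.00158), at least 1.81-fold. Hoxb2 entered the test through the EpiSC arrays alone, so this p-value is a description. Hoxa7, a gene of the thoracic region, read 34.4 and 39.3 in EpiSCs and 93.7 and 77.2 in EpiLCs. It was above the level in both groups and fell 2.31-fold (-1.21 ± 0.17, limma adjusted p = 0.000111). These 2 were the Hox genes called, 1 in each direction, and 18.9% of all genes were called.

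By single probe set 5 Hox genes were called in EpiSCs, 4 higher and 1 lower, and 19.3% of all probe sets were called. Hoxb2 was among the higher ones and entered the test through the EpiSC arrays alone, so this count is a description. Hoxc6 1427454_at read 51.2 and 54.3 in EpiSCs and 3.01 and 7.08 in EpiLCs (3.27 ± 0.32, limma adjusted p = 1.06e-05, at least 1.88-fold). The other Hoxc6 probe sets did not share this rise. The brightest, 1427361_at, read 58.2 and 57.7 in EpiSCs and 56.2 and 60.4 in EpiLCs, and 1427362_x_at 35.6 and 33.8 against 33.1 and 36.2. Hoxa3 1452421_at read 29.7 and 38.5 in EpiSCs and 1.42 and 10.5 in EpiLCs (2.35 ± 0.48, limma adjusted p = 0.00194, at least 1.20-fold). Hoxa9 1455626_at was called at 13.2 and 17.9 in EpiSCs against 5.85 and 1.49 in EpiLCs, all under the level. On amplified arrays 0 Hox genes were called (limma; 2 had an unadjusted p under 0.05), with 12.5% of all genes called. The test by probe set called 1, Hoxa3 1452421_at, at 12.4 and 46.8 in EpiSCs and 1 and 1 in EpiLCs, with 11.4% of all probe sets called. There the 2 EpiSC arrays stood apart: Hoxb2 read 36.4 and 8.53 in EpiSCs and 6.28 and 1 in EpiLCs, and Hoxc6 1427454_at 26.4 and 6.96 in EpiSCs and 7.99 and 18.1 in EpiLCs. With the replicate number as a block 1 gene was called, Hoxd12, at 27.7 and 11.3 in EpiSCs and 74.2 and 33.2 in EpiLCs (-1.49 ± 0.28, limma adjusted p = 0.00542). Markers of fibroblasts moved with the EpiSC group: 15 of 17 were called higher, and their summed intensity was 17011 and 17172 in EpiSCs and 2446 and 2374 in EpiLCs. Their part in the Hox differences was not tested.

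In PGCLCs, Hox probe sets differed from day 2 EpiLCs and ESCs in both directions. Hoxa9, which patterns the trunk and acts in blood progenitors, read 35.0 and 48.3 in PGCLCs, against 5.85 and 1.49 in day 2 EpiLCs and 9.40 and 2.73 in ESCs, by probe set 1455626_at. Hoxc6 1427454_at read 50.9 and 56.8 in PGCLCs, against 3.01 and 7.08 in EpiLCs and 11.6 and 11.9 in ESCs. For both, no PGCLC array overlapped an EpiLC or ESC array, and the increases over EpiLCs were 3.05 ± 0.44 for Hoxa9 (limma adjusted p = 0.000178, at least 1.46-fold) and 3.30 ± 0.32 for Hoxc6 (limma adjusted p = 8.71e-06, at least 1.91-fold). Hoxa9 1455626_at entered the test through the PGCLC arrays alone, so its p-value is a description. On amplified arrays neither was called: Hoxc6 1427454_at read 11.3 and 8.91 in PGCLCs and 7.99 and 18.1 in EpiLCs, and Hoxa9 1455626_at 14.4 and 12.7 in PGCLCs and 6.10 and 5.62 in EpiLCs. The brightest Hoxa9 probe set, 1421579_at, did not rise on unamplified arrays. It read 19.1 and 30.8 in PGCLCs, 35.3 and 38.1 in EpiLCs and 43.5 and 38.4 in ESCs. The other Hoxc6 probe sets did not rise over EpiLCs there either. The brightest, 1427361_at, read 44.1 and 56.1 in PGCLCs and 56.2 and 60.4 in EpiLCs. Hoxc6 1427362_x_at read 20.1 and 36.1 in PGCLCs and 33.1 and 36.2 in EpiLCs. Hoxd12 read 111 and 111 in PGCLCs and 37.4 and 40.9 in EpiLCs, a 2.83-fold rise (limma adjusted p = 0.0362). Hoxd12 was also 65.1 and 62.2 in ESCs and 87.1 and 104 at day 1, so day 2 was lower than day 1, and no call remained once 1 array of either group, whichever it was, was dropped.

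Probe sets of Hoxa10, which patterns the lumbar region, moved in opposite directions. Probe set 1431475_a_at read 41.0 and 39.7 in PGCLCs and 10.4 and 2.43 in day 2 EpiLCs and rose by 2.61 ± 0.53 (limma adjusted p = 0.00181, at least 1.44-fold), having entered the test through the PGCLC arrays alone. The brighter one, 1446408_at, read 10.8 and 36.5 in PGCLCs and 70.8 and 65.6 in EpiLCs and fell by 1.78 ± 0.45 on the log2 scale (limma adjusted p = 0.00636, 3.43-fold lower). On amplified arrays the same pair of directions was seen. There 1431475_a_at read 22.3 and 18.4 in PGCLCs and 6.50 and 5.53 in EpiLCs (1.76 ± 0.47, limma adjusted p = 0.0388), under the level, and 1446408_at read 1 and 3.36 in PGCLCs and 98.4 and 146 in EpiLCs (-4.84 ± 0.90, limma adjusted p = 0.00612, at least 4.99-fold lower). When the probe sets of each gene were averaged, Hoxa10 had a positive difference in unamplified PGCLCs (0.41 over EpiLCs and 0.46 over ESCs) that was not called, so no single direction can be given for this gene.

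In all, 3 of 18 Hox genes were called in PGCLCs against day 2 EpiLCs, 2 higher and 1 lower, with 20.6% of all genes called. Besides Hoxd12 and Hoxa10 this was Hoxb13, a gene of the tail end, which exceeded the level on 1 array alone, at 45.5 and 12.5 in PGCLCs and 7.97 and 9.02 in EpiLCs (1.49 ± 0.56, limma adjusted p = 0.0436). As Hoxa9 1455626_at and Hoxa10 1431475_a_at entered the test through the PGCLC arrays alone, the count by any probe set is a description. It was 5 genes, with 21.3% of all probe sets called. Without the first PGCLC array these counts were 0 and 3, without the first EpiLC array 1 and 3, and without the second EpiLC array the gene count was 1. Against ESCs, 5 Hox genes were called, with 20.6% of all genes called. Hoxc4 (-4.41 ± 0.53, limma adjusted p = 3.28e-05), Hoxc13 (-4.61 ± 0.33, limma adjusted p = 5.49e-07) and Hoxa10 1446408_at were lower, and Hoxa7 and Hoxb2 were higher. Hoxc4 and Hoxc13 entered the test through the ESC arrays alone, so their p-values and the count of 5 are descriptions. Hoxb2 was under the level on every array of both groups, at 19.3 and 15.0 in PGCLCs and 8.04 and 3.98 in ESCs. It kept this call under 6 of 10 alternative settings and lost it when ESC replicate 2 or either PGCLC array was left out. Hoxa7 read 117 and 130 in PGCLCs and 61.3 and 51.8 in ESCs, a 2.18-fold rise (limma adjusted p = 0.000175), and day 2 EpiLCs lay between them. On amplified arrays Hoxa7 read 180 and 169 in PGCLCs and 205 and 149 in ESCs, which overlapped. By any probe set 8 were called against ESCs, with 21% of all probe sets called. Among them Hoxa9 1455626_at and Hoxa10 1431475_a_at entered the test through the PGCLC arrays alone. Hoxc4 and Hoxc13 entered through the ESC arrays alone, so this count is a description as well.

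The 2 unamplified PGCLC arrays differed in some posterior genes that did not enter the test because only 1 array exceeded the level. Hoxb9 read 5.92 and 79.9 and Hoxc10 20.3 and 54.2 in PGCLCs, against 6.65 and 3.95 and against 1 and 5.04 in day 2 EpiLCs, and the second PGCLC array was the higher one for both. That array also had more of Cdx2, an activator of posterior Hox genes and a marker of hindgut, at 873, against 168 on the first PGCLC array and 1.45 and 1 in EpiLCs. The part of Cdx2-positive cells in these values was not tested. On amplified arrays 1 of 25 Hox genes was called in PGCLCs against EpiLCs, Hoxa10 1446408_at, with 12.7% of all genes called. The test by probe set called the pair of Hoxa10 probe sets, with 11.3% of all probe sets called. With the replicate number as a block Hoxc10 was called too, at 16.3 and 17.0 in PGCLCs and 4.30 and 4.79 in EpiLCs (1.88 ± 0.57, limma adjusted p = 0.0418), all under the level.

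**Figure D2:**
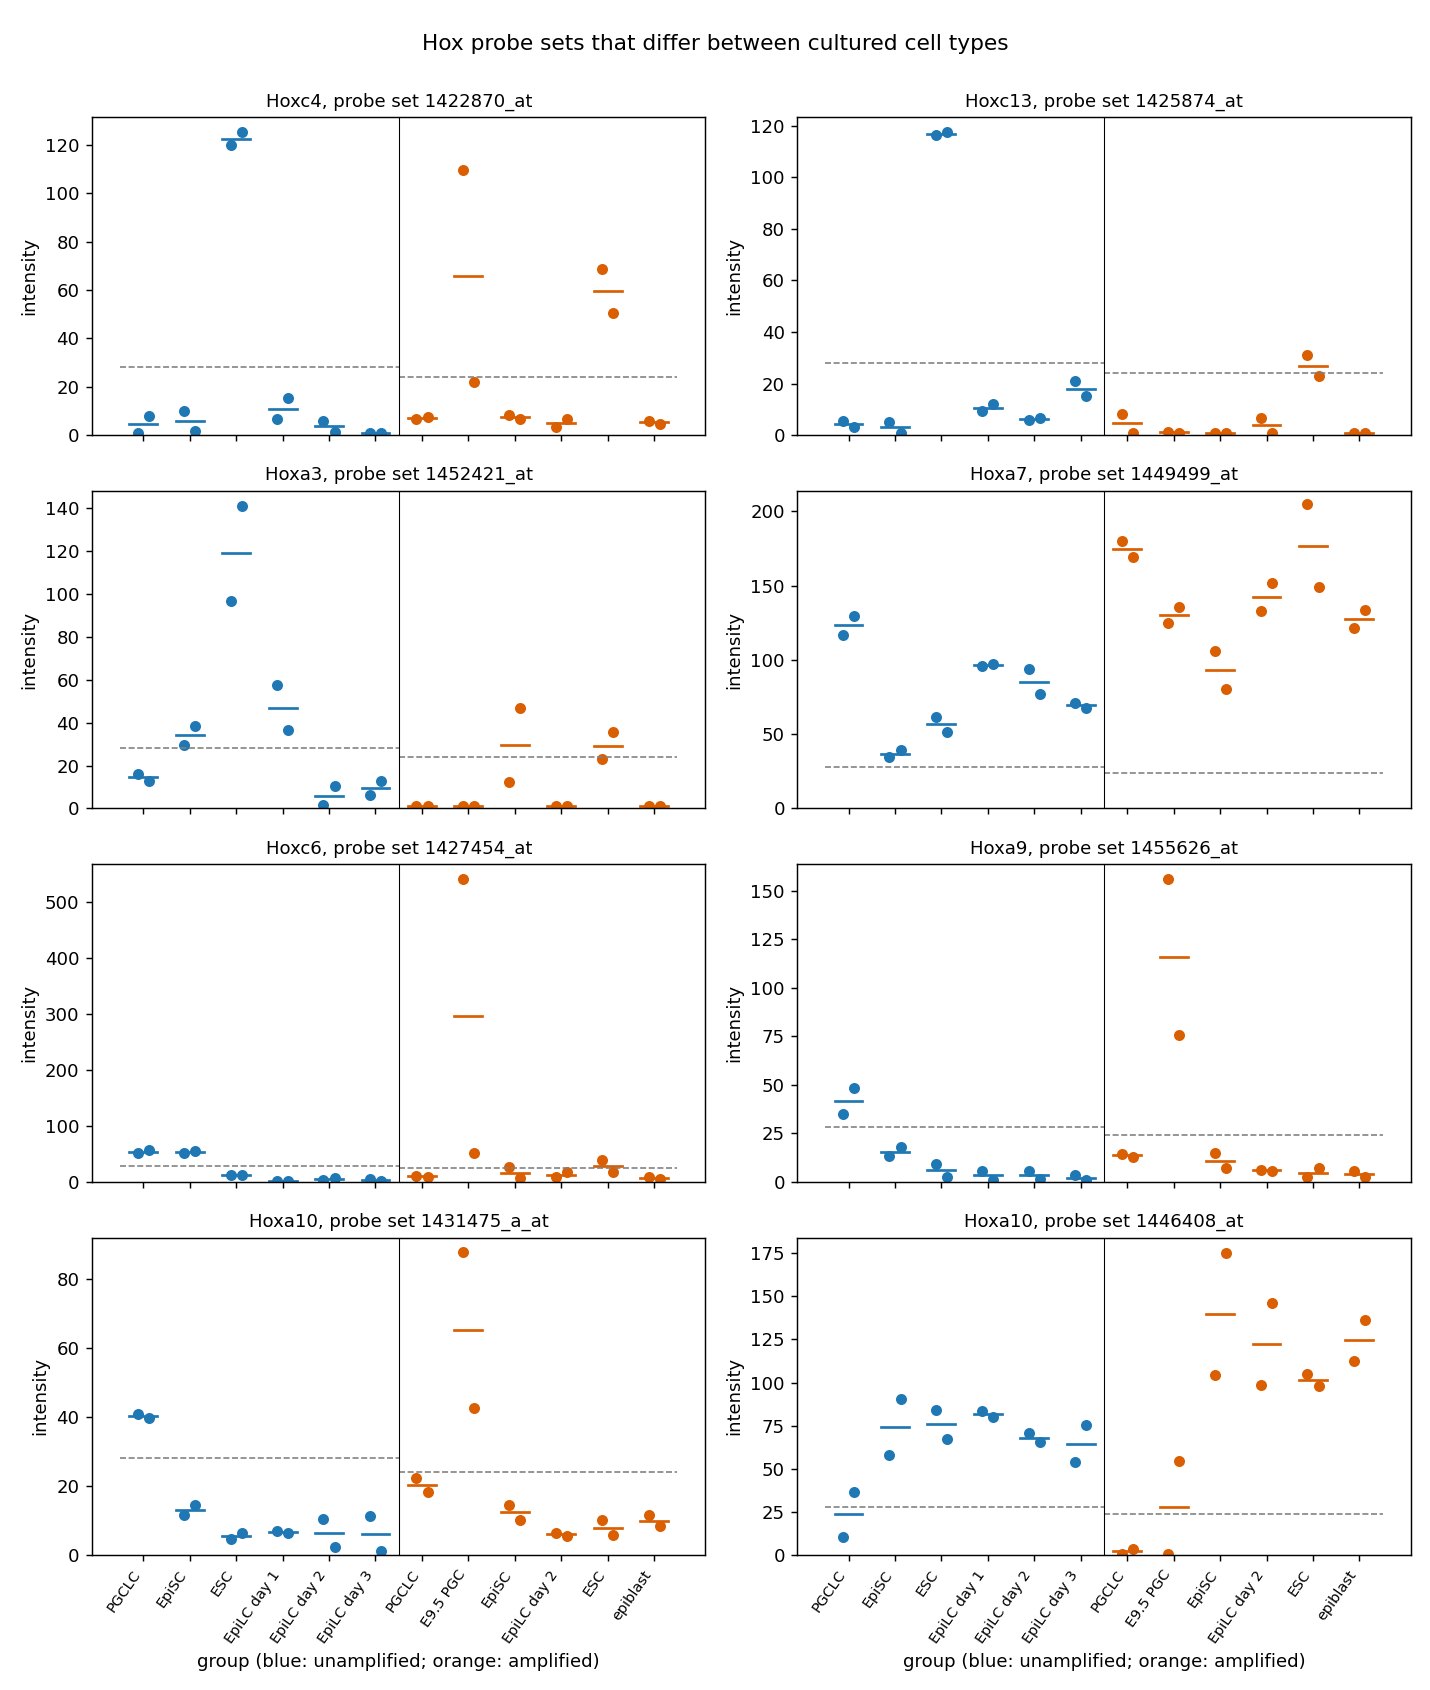
Intensity (linear axis from 0) of 8 Hox probe sets on every array, with points for arrays, bars for group means and dashed lines for the detection level of each array set. Hoxc4 and Hoxc13 stand at 116 to 125 on the unamplified ESC arrays and at most 20.9 on the other unamplified arrays, and the 2 Hoxa10 probe sets differ in opposite directions between PGCLCs and EpiLCs.

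In PGCs of day 9.5, Hox genes of clusters B, C and D were called higher than in epiblast. Genes of cluster A were called only by probe sets that were not their brightest. Of 25 Hox genes tested 7 were called, all higher, and 10.5% of all genes were called, with 6.11% of all genes called higher in PGCs. By single probe set 11 Hox genes were called higher, with 5.2% of all probe sets called higher. Of the 11 called probe sets, 5 entered the test through the PGC arrays alone, so the counts are not set against the background as a result. They are those of Hoxb9 and Hoxc8, Hoxa9 1455626_at, Hoxa10 1431475_a_at and Hoxd8 1433638_s_at. Any p-values given for them below are descriptions. Over all 48 Hox probe sets, both PGC arrays exceeded both epiblast arrays for 26, which is 54.2%, against 23.7% of all probe sets. The median log2 difference was 0.19 over the 25 Hox genes and 0.00 over all genes. In bulk samples fewer cells of a type and less RNA per cell cannot be told apart.

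Among the early, anterior genes, Hoxb1, the first Hox gene of the hindbrain, read 119 and 51.2 in PGCs and 3.02 and 4.68 in epiblast. It rose by 4.14 ± 0.62 on the log2 scale (limma adjusted p = 0.00235), at least 3.25-fold. Hoxb2 read 261 and 37.4 in PGCs and 1 and 3.73 in epiblast (4.56 ± 0.94, limma adjusted p = 0.0127, at least 4.11-fold). For each, both PGC arrays stood above every epiblast array, but the Hoxb2 call was lost without PGC replicate 1 or without either epiblast array. Hoxa3 1427433_s_at read 94.5 and 32.6 in PGCs and 1.82 and 3.24 in epiblast (3.72 ± 0.64, limma adjusted p = 0.00616, at least 2.31-fold). Hoxa3 1452421_at, the probe set that was high in ESCs, read 1 on both PGC and both epiblast arrays. Hoxc4 read 110 and 21.9 in PGCs and 6.01 and 4.63 in epiblast (3.22 ± 0.65, limma adjusted p = 0.0112, at least 2.04-fold), a call lost without either epiblast array.

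Genes of the middle of the clusters were called too. Hoxc6 1427454_at read 540 and 51.9 in PGCs and 8.45 and 5.94 in epiblast (4.56 ± 1.02, limma adjusted p = 0.021, at least 6.97-fold), the widest gap between the 2 PGC arrays of any called Hox probe set. The brightest Hoxc6 probe set, 1427361_at, read 75.6 and 68.2 in PGCs and 85.7 and 61.1 in epiblast. Hoxc6 1427362_x_at read 222 and 104 in PGCs and 105 and 103 in epiblast. Hoxc8, a thoracic gene, read 117 and 31.1 in PGCs and 1 and 1 in epiblast (3.85 ± 0.63, limma adjusted p = 0.00373, at least 2.51-fold). Both Hoxd8 probe sets were called: 1431099_at read 45.9 and 55.2 in PGCs and 1 and 7.31 in epiblast, and 1433638_s_at 82.5 and 39.5 in PGCs and 6.85 and 8.83 in epiblast. The first of these was called only in the test by gene (3.18 ± 0.88, limma adjusted p = 0.0462), and the call depended on each of the 4 arrays. It read 36.3 to 99.6 on the unamplified arrays and at most 29 on the other amplified ones.

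Posterior genes included the largest log2 difference of the called Hox genes. Hoxb9, a gene of the thoracic region, read 332 and 118 in PGCs and 5.30 and 1 in epiblast, and rose by 5.39 ± 0.54 (limma adjusted p = 0.000249), at least 8.22-fold. Hoxa9 1455626_at read 156 and 75.4 in PGCs and 5.70 and 2.25 in epiblast (4.47 ± 0.53, limma adjusted p = 0.000785, at least 4.51-fold). The brightest Hoxa9 probe set, 1421579_at, was not called, at 44.7 and 42.7 in PGCs and 41.6 and 56.5 in epiblast. Hoxc10 read 154 and 38.2 in PGCs and 4.88 and 1 in epiblast (4.09 ± 0.57, limma adjusted p = 0.0016, at least 3.20-fold). Hoxa10 1431475_a_at read 87.7 and 42.5 in PGCs and 11.6 and 8.47 in epiblast (2.62 ± 0.47, limma adjusted p = 0.0073, at least 2.54-fold), whereas 1446408_at, which was not called, read 1 and 54.4 in PGCs and 112 and 136 in epiblast. Not all posterior genes gave such a signal. Hoxc13 read 1.22 and 1 in PGCs and 1 and 1 in epiblast, Hoxd9 read 1 on all 4 arrays, and Hoxb13 read 6.24 and 10.9 in PGCs and 9.06 and 14.8 in epiblast.

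Some genes that were not called also had their highest values in PGCs. Hoxb6 read 177 and 35.9 in PGCs and 15.3 and 16.6 in epiblast (2.32 ± 0.74, limma adjusted p = 0.0804). With the replicate number as a block it was called (limma adjusted p = 0.0295), and so was Hoxa10 1446408_at as lower in PGCs, at -3.04 ± 0.77 (limma adjusted p = 0.0246). Hoxa2 at 77.4 and 17.4 in PGCs and 1 and 1.72 in epiblast, and Hoxb5 at 65.3 and 15.8 in PGCs and 1 and 1 in epiblast, did not enter the test because only 1 array exceeded the level.

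**Figure D3:**
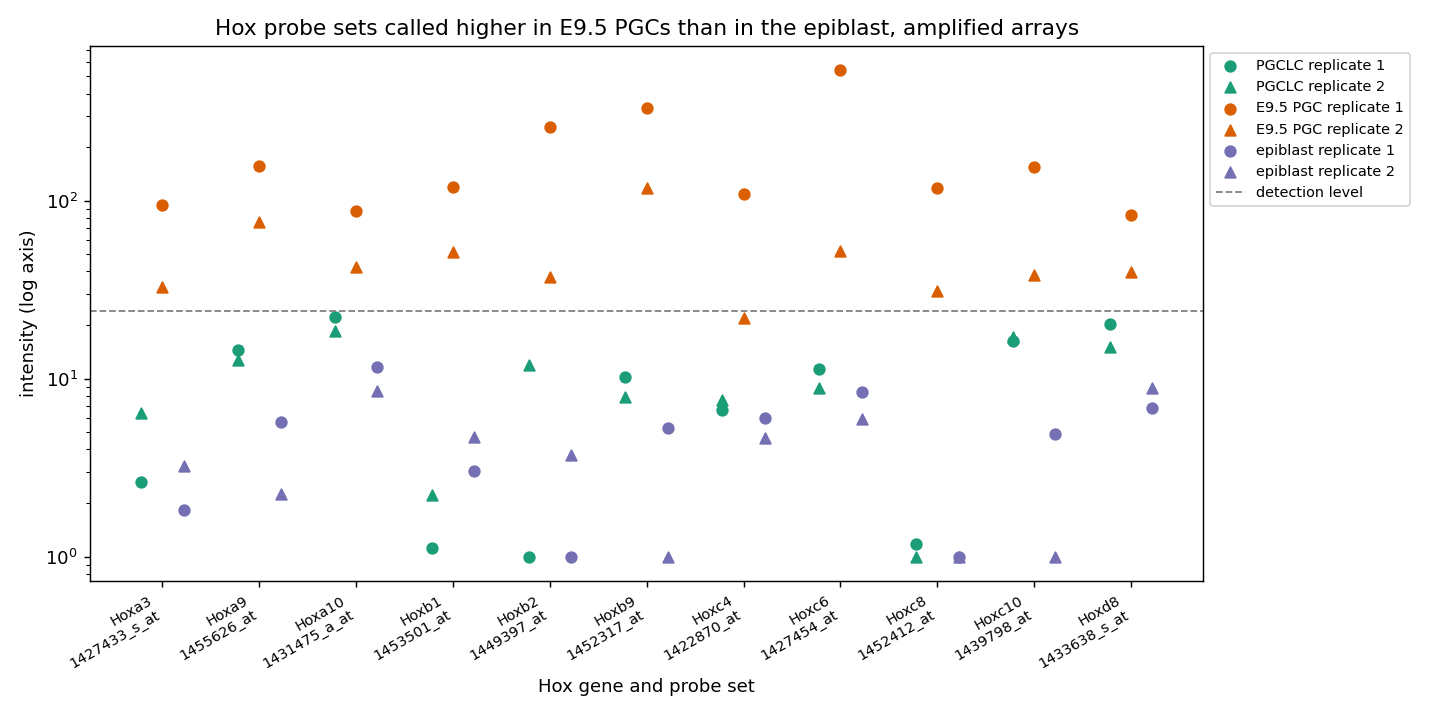
Intensity (log axis) of the 11 Hox probe sets called higher in E9.5 PGCs than in epiblast, on the amplified PGCLC, PGC and epiblast arrays, with a dashed line at the detection level. The PGC points run between 21.9 and 540, circles (replicate 1) above triangles (replicate 2) in all 11, and the highest PGCLC or epiblast point is 22.3.

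The PGC arrays were unequal, and PGC replicate 1 was the higher one for all 11 called Hox probe sets. The ratio of replicate 1 to replicate 2 was 2.06 to 10.4, with a median of 2.90. In every amplified group, PGCs included, replicates 1 and 2 carry different array codes. The gap between the PGC arrays therefore cannot be told apart from a difference between codes. Markers of somatic and blood cells differed between these arrays in the same direction. All 7 fibroblast and connective tissue markers called higher in PGCs, both mesoderm markers, both neural tube markers and both blood markers were higher on replicate 1, by 1.73 to 5.62 times. For example, Meox1, of the somites, read 354 and 113 in PGCs and 1 and 1 in epiblast, and Hba-x, an embryonic globin, read 8258 and 3346 in PGCs and 30 and 28.3 in epiblast. Germ cell markers did not share this direction, with 1 of 6 called markers higher on replicate 1 and ratios of 0.63 to 1.18. Called markers were 7 of 17 measured for fibroblasts and 2 of 12 for mesoderm. For neural tube they were 2 of 9 and for blood 2 of 7. The call used these same PGC arrays. The share higher on replicate 1 among all genes called higher in PGCs was not computed. Summed over the lists, 17 fibroblast markers gave 2892 and 1232 in PGCs and 583 and 590 in epiblast, and 7 blood markers 11106 and 4073 in PGCs and 278 and 275 in epiblast. The sums of 12 mesoderm markers were 13989 and 13826 in PGCs and 13796 and 14514 in epiblast. This sum was 13142 to 15618 on all amplified arrays and 309 to 653 on all unamplified ones. It therefore cannot tell the groups apart. The sums of 9 neural tube markers were 1373 and 549 in PGCs and 863 and 746 in epiblast, so the groups overlapped for this list. Cdh5, of endothelium, and Ptprc, of leukocytes, were near background in PGCs, at 26 and 21.6 and at 11 and 12.6. Of the endothelial markers called higher, 2 of 3 were higher on replicate 1, and the hindgut marker Cdx2 read 106 and 123 in PGCs and 16 and 16.1 in epiblast. How far somatic cells account for the Hox signal of the PGC samples was not tested.

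Without PGC replicate 1, 5 Hox genes were called against epiblast, and 6 by any probe set in place of 11. The 5 were Hoxb1, Hoxb9, Hoxc4, Hoxc8 and Hoxc10, and the 6 included Hoxa3 and Hoxa9 but not Hoxa10, Hoxc6 or Hoxd8. Without either epiblast array the counts were 4 and 7. Hoxb1, Hoxb9 and Hoxa9 1455626_at were called under every one of the alternative settings that could be run for them. Hoxb9 and Hoxa9 1455626_at entered the test through the PGC arrays alone, so for them this is a description.

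**Figure D4:**
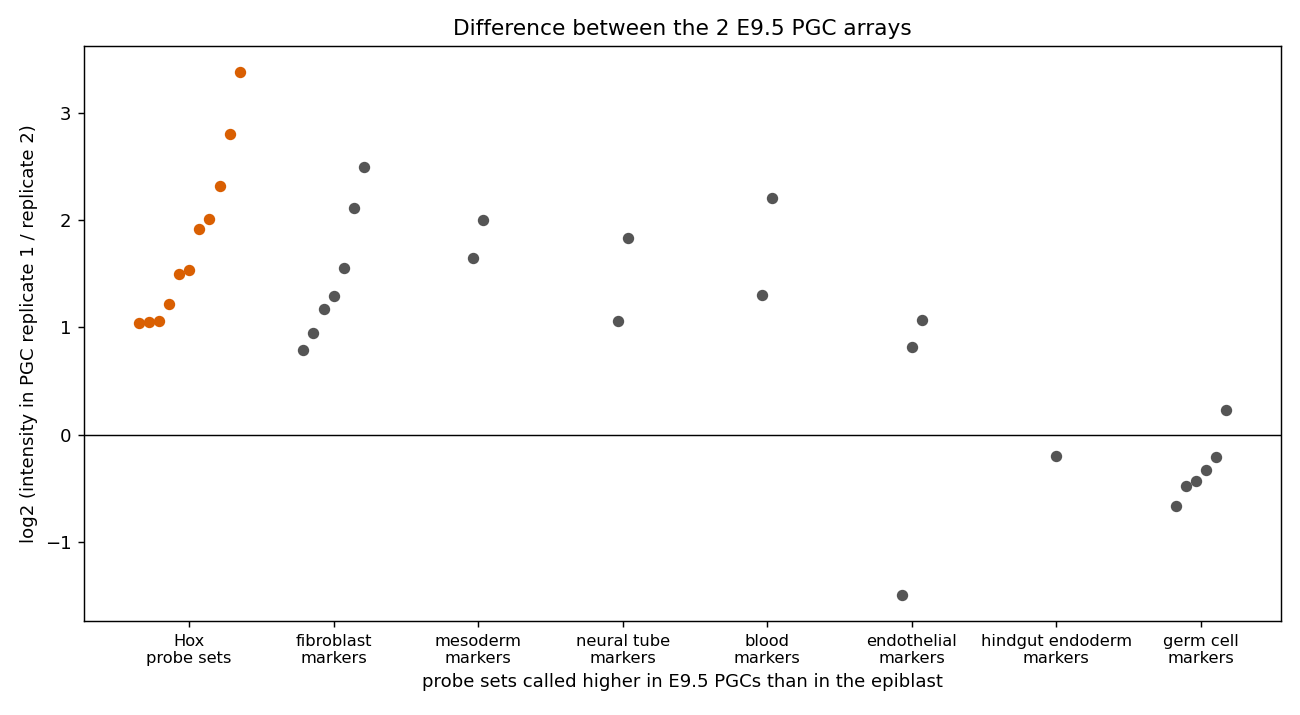
Log2 ratio of the intensity in PGC replicate 1 to that in replicate 2 (y axis) for Hox probe sets and marker genes that were called higher in E9.5 PGCs than in epiblast, by list (x axis). All 11 Hox points lie above 0, as do all fibroblast, mesoderm, neural tube and blood points, and 5 of 6 germ cell points lie below 0.

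PGCLCs are set beside E9.5 PGCs as their embryonic counterpart, and 3 of the 7 Hox genes called higher in PGCs than in epiblast were called lower in PGCLCs than in PGCs. Of 25 Hox genes 3 were called, all lower in PGCLCs, with 2.9% of all genes called and 1.33% lower. Hoxb9, Hoxc8 and the Hoxa9 probe set 1455626_at entered the test through the PGC arrays alone, so the counts are a description. Hoxb9 read 10.2 and 7.89 in PGCLCs and 332 and 118 in PGCs (-4.46 ± 0.54, limma adjusted p = 0.00333, at least 8.22-fold lower). Hoxb1 read 1.12 and 2.23 in PGCLCs and 119 and 51.2 in PGCs (-4.22 ± 0.62, limma adjusted p = 0.00775, at least 3.25-fold lower), and Hoxc8 read 1.18 and 1 in PGCLCs and 117 and 31.1 in PGCs (-3.85 ± 0.63, limma adjusted p = 0.0123, at least 2.51-fold lower). On no array did the groups overlap for these 3. By single probe set Hoxa9 1455626_at (14.4 and 12.7 in PGCLCs, 156 and 75.4 in PGCs) and Hoxa3 1427433_s_at (2.61 and 6.37 in PGCLCs, 94.5 and 32.6 in PGCs) were lower as well, making 5, with 1.09% of all probe sets called lower. This comparison uses the same PGC arrays as the one with epiblast and is not independent of it. Blocking on the replicate number gave 6 called genes, Hoxb2, Hoxb6 and Hoxc4 in addition, and 9 by any probe set. When only these 4 arrays were fitted 0 Hox genes were called, without the first or the second PGCLC array 1 was called, and without PGC replicate 2 the count was 7. Without PGC replicate 1 the count was 2, by gene and by any probe set; Hoxb9 was still called (limma adjusted p = 0.0201), and Hoxb1, Hoxc8 and the probe sets of Hoxa3 and Hoxa9 were not (limma adjusted p of 0.0605, 0.0628, 0.181 and 0.151).

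The step into germ cells was compared directly between culture and embryo, as PGCLCs minus EpiLCs against PGCs minus epiblast. Hoxb9 was the 1 Hox gene called, where 0.513% of all genes were called, and it entered the test through the PGC arrays alone, so the call is a description. Its step was 0.91 ± 0.54 in culture and 5.39 ± 0.54 in the embryo, a difference of -4.47 ± 0.77 (limma adjusted p = 0.0439). Hoxb1 had a difference of -4.56 ± 0.88 that was not called (limma adjusted p = 0.0654), and was called with the replicate number as a block (limma adjusted p = 0.0293). With every probe set tested on its own, 0 Hox genes were called (limma; 10 probe sets had an unadjusted p under 0.05), with 0.262% of all probe sets called, and leaving out any 1 EpiLC, epiblast or PGCLC array also left 0, whereas 3 were called without PGC replicate 2. Without PGC replicate 1 the count was 1, but Hoxb9 itself was not called (limma adjusted p = 0.104).

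Cultured pluripotent cells were set beside the epiblast they model, and few Hox genes were called. Day 2 EpiLCs against epiblast gave 0 called Hox genes of 25 (limma; 1 had an unadjusted p under 0.05), and 0.961% of all genes were called. The 1 was Hoxa13, a gene of the tail and limb ends, at 10.3 and 6.73 in EpiLCs and 19.2 and 24.2 in epiblast (-1.38 ± 0.56, limma adjusted p = 0.43), near or under the level. EpiSCs against epiblast also gave 0 called (limma; 2 had an unadjusted p under 0.05), with 11.7% of all genes called, and by single probe set 1, Hoxa3 1452421_at, with 10.1% of all probe sets called. Blocking on the replicate number gave 2 called genes there: Hoxb1, at 32.3 and 10.1 in EpiSCs and 3.02 and 4.68 in epiblast (limma adjusted p = 0.0289), and Hoxd12, at 27.7 and 11.3 in EpiSCs and 103 and 46.3 in epiblast (limma adjusted p = 0.00146). A difference that misses the threshold with 2 arrays a group does not show that the levels are equal.

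Whether a Hox difference depended on PCR amplification was tested for the 3 steps measured both ways. Of 17 Hox genes 0 were called in each (limma; 1, 1 and 2 had an unadjusted p under 0.05), where 0.852%, 0.295% and 0.845% of all 14553 genes were called for EpiLCs minus ESCs, EpiSCs minus EpiLCs and PGCLCs minus EpiLCs. For Hoxa10 1446408_at the PGCLC difference was more negative by 3.06 ± 1.10 on amplified arrays (limma adjusted p = 0.24). By probe set 0 of 22 were called (limma; 1, 2 and 4 had an unadjusted p under 0.05), where 0.864%, 0.227% and 0.848% of all probe sets were called. There the PGCLC log2 difference on amplified arrays minus that on unamplified arrays was -3.56 ± 1.14 for Hoxc6 1427454_at (limma adjusted p = 0.176) and -1.84 ± 0.68 for Hoxa9 1455626_at (limma adjusted p = 0.262).

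Some genes that act with or on Hox clusters were called in EpiSCs, PGCLCs and PGCs. Of 9 listed cofactors of the Pbx, Meis and Pknox families 8 were measured, and in EpiSCs against EpiLCs 5 of 7 tested were higher, among them Meis2 (2.83) and Pknox2 (2.65), log2 differences with 0 lower (list median 1.48, all genes 0.02), where 12.4% of all genes were higher and 6.44% lower. In PGCs against epiblast 2 of 8 were higher, Meis2 (3.20) and Pknox2 (3.09; list median 0.63, all genes 0.00), where 6.11% of all genes were higher and 4.36% lower. Both were lower in PGCLCs than in PGCs (-2.10 and -2.77), where 1.33% of all genes were lower. In PGCLCs against EpiLCs, Meis2 was higher (1.87) and Pbx3, Pbx4 and Pknox2 were lower, by 1.10, 1.40 and 2.64, where 8.78% of all genes were higher and 11.9% lower. Among the Cdx and ParaHox genes, Cdx2 rose in unamplified PGCLCs (6.51) and in PGCs (2.83). On amplified PGCLC arrays Cdx2 read 24.5 and 18.2, against 1 and 1 in EpiLCs.

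For retinoic acid, 6 of 16 tested genes were higher and 1 lower in EpiSCs against EpiLCs, beside 12.4% and 6.44% of all genes. Cyp26a1, which degrades retinoic acid, was higher there by 7.39 on the log2 scale, and Crabp1, which binds it, by 3.47. In PGCs against epiblast Aldh1a2, which makes retinoic acid, was higher by 5.54 and Crabp1 by 3.18, while Cyp26a1 and Rarg, a receptor, fell by 4.37 and 2.16. Aldh1a2 read 797 and 390 in PGCs, again higher on replicate 1, and 11.1 and 12.9 in epiblast. Of 20 Polycomb genes tested, 2 were higher and 0 lower in PGCs against epiblast (Bmi1, 1.21, and Phc2, 1.40), beside 6.11% and 4.36% of all genes, and 1 was higher and 3 lower in PGCLCs against EpiLCs, beside 8.78% and 11.9%. Of 10 Trithorax genes and histone H3K27 demethylases, 1 was called in EpiSCs against EpiLCs, Ash2l, which fell by 1.11 on the log2 scale (18.9% of all genes were called).

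Of 4 genes tied to Hox repression in mouse germ cells, 3 rose in both PGCLCs and PGCs. In PGCs against epiblast Prdm14 was higher by 7.89, Prdm1 by 6.43 and Tfap2c by 4.34, and in PGCLCs against EpiLCs on amplified arrays by 8.32, 5.12 and 5.62, where 6.11% and 6.47% of all genes were called higher. Between PGCLCs and PGCs the log2 differences were 0.23, 0.07 and -0.26 for these 3 and -0.39 for the fourth, Prmt5, none of them called (limma). Among 15 genes that flank the clusters, Calcoco2 was higher in PGCs (4.59) and in PGCLCs (4.62 on amplified arrays), beside 6.11% and 6.47% of all genes. Evx1, next to cluster A, was higher in PGCLCs (3.04). These are examples of called genes, and how many of the 15 were called higher or lower is not given here. Hoxb5os, a noncoding gene inside cluster B, read 704 and 226 in PGCs and 16.5 and 35.4 in epiblast, with the same order of the PGC arrays as the Hox genes around it, and was called higher (4.04).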

How the data were processed

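The authors deposited 1 linear intensity per probe set and array; no source used here names the software or normalization. The deposited intensity medians differed by at most 0.26 on the log2 scale within a set, so no scaling was added. Probe sets were named from the platform annotation, and those listed for 1 gene were kept. The 10th percentile, 4.20, served as a floor before the log2 step. Probe sets tested had at least 2 of 12 arrays above the 40th percentile of their set: 14934 genes (18 Hox) unamplified and 15608 (25 Hox) amplified. limma 3.58.1 in R 4.3.3 was fitted to the 6 groups of each set with intensity trend, Benjamini-Hochberg adjustment over all genes or all probe sets, and two-sided p-values. "At least" folds are against the detection level. A background from olfactory receptors was not used because 43 such probe sets, under 100, were listed. For the comparisons described, all Hox genes called by gene in the main fit are named, and up to 4 called members of other lists. Other pairs of groups, such as EpiSCs against ESCs, were fitted and are not described. The members and lists were chosen with earlier results of these data known. Replicate numbers pair the amplified samples: in all 15 pairs of groups same-numbered arrays deviated together (r of 0.11 to 0.61), and the numbers coincide with the array codes in the labels. Among unamplified arrays, the first EpiSC and PGCLC arrays carry a different code from the first ESC and EpiLC arrays. Differences between those arrays cannot be told apart from a difference between codes. With the array code as a block, Hoxb13 lost its call in PGCLCs against day 2 EpiLCs. The fit was tested on simulated data.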

Additional observations from a re-analysis of the deposited data

Results flagged for a closer look

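The germ cell step of Hoxb9 differed between culture and embryo by -4.47 on the log2 scale, by a direct test of the 2 differences in limma (adjusted p = 0.0439). The call was lost in 7 of the 8 fits that left out 1 array (limma adjusted p of 0.104 to 0.193) and held without PGC replicate 2 (0.026). It was also lost with no filter (0.051), with the filter at the 60th percentile (0.0641), with only the 4 groups compared (0.0627) and with low values kept (0.34), while the other 6 settings gave 0.019 to 0.0421. Hoxb9 read 10.2 and 7.89 in PGCLCs against 1.61 and 5.42 in day 2 EpiLCs, and 332 and 118 in PGCs against 5.30 and 1 in epiblast.

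Probe sets shared by neighbouring Hox genes, which no comparison used, also gave signal in PGCs. The probe set for Hoxb8 and Hoxb7 read 126 and 30.6 in PGCs, a mean of 78.3, against 1 and 4.85 in epiblast and at most 18.4 on any other array. The probe set 1421537_at, for Hoxd4 and Hoxd3, read 69.5 and 52.6 in PGCs, a mean of 61.1, against 43.1 and 39.8 in epiblast, and was above the level in most groups. On each PGC array both read higher than on either epiblast array. For 1421537_at, amplified day 2 EpiLCs read 56.4 and 56.5, above the second PGC array. Which of the genes gave the signal was not tested.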

How the results depend on the processing

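Counts of called Hox genes were small, so single choices moved them. Without the filter on dim probe sets, 5 were called for day 2 EpiLCs against ESCs, 4 for EpiSCs and 5 for PGCLCs against EpiLCs, and 5 for PGCLCs against PGCs. With the filter at the 60th percentile the counts were 1 for EpiSCs against EpiLCs, 1 for amplified EpiLCs against ESCs, 2 for PGCs against epiblast, 1 for PGCLCs against PGCs and 0 for the culture and embryo steps. With the 40th percentile as the floor they were 1 for EpiSCs against EpiLCs (1 by any probe set), 2 by any probe set for PGCLCs against EpiLCs, 0 for amplified EpiLCs against ESCs, 4 for PGCs against epiblast (5 by any probe set) and 2 for the steps. With low values kept they were 1 for PGCLCs against EpiLCs, 1 for amplified EpiLCs against ESCs and 0 for the steps. Each probe set on its own gave 4, 5, 5 and 8 genes for EpiLCs against ESCs, EpiSCs against EpiLCs, PGCLCs against EpiLCs and PGCLCs against ESCs, 1 for amplified EpiSCs against either EpiLCs or epiblast, 11 for PGCs, 5 for PGCLCs against PGCs and 0 for the steps. Averaged probe sets gave 5 for PGCLCs against PGCs and turned Hoxa10 to 0.41 and 0.46 in PGCLCs against EpiLCs and ESCs. Without the intensity trend the counts were 1 for PGCLCs and 2 for amplified PGCLCs against EpiLCs, 1 for amplified EpiSCs against epiblast and 2 for the steps. Median centring gave 2 for amplified PGCLCs against EpiLCs. Fitting only the compared groups gave 2 for amplified PGCLCs against EpiLCs, 0 for PGCLCs against PGCs and 0 for the steps. The replicate block gave 1 for amplified EpiSCs against EpiLCs, 2 against epiblast, 2 for amplified PGCLCs against EpiLCs, 6 (9 by any probe set) for PGCLCs against PGCs and 2 for the steps; it changed no other count by over 1.5 times. On unamplified arrays the numbers pair nothing, with r over 0.1 in 3 of 15 pairs of groups. The cause of these shifts was not tested.

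Leaving out 1 array at a time gave 0 to 2 genes for PGCLCs against EpiLCs (3 to 4 by any probe set), 0 to 1 for amplified EpiLCs against ESCs, 0 to 1 for amplified EpiSCs against EpiLCs and against epiblast, 4 to 8 for PGCs against epiblast (6 to 12), 1 to 7 for PGCLCs against PGCs (0 to 10) and 0 to 3 for the steps. The count of 7 and of 10 for PGCLCs against PGCs came without PGC replicate 2. Detected genes numbered 10 unamplified and 8 amplified at the 60th percentile, 8 and 5 with the 95th percentile of olfactory receptor probe sets, chosen after seeing the data, and 4 and 0 with their 99th percentile. With 1 replicate of every group left out 18 to 22 and 25 to 29 were detected, as 1 array then sufficed. EpiLCs against epiblast kept a count of 0 under all alternatives run. Of 684 single results recomputed for 49 named probe sets and comparisons, 546 kept their call and direction, 136 lost the call and 2 reversed.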
